A study of Mus musculus and Rattus norvegicus with 2 samples.

Results

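Fragments of 5.8S rRNA were examined in small RNA libraries of cauda epididymal sperm, 1 from the mouse and 1 from the rat. The fragments were taken as the listed sequences whose deposited annotation is the Rfam family of 5.8S rRNA, which gave 128 of 89179 mouse sequences and 1213 of 137388 rat sequences, or 1341 of 226567 in all. Mice were of strain C57BL/6 and 2 months old, and rats were Sprague Dawley young adults of 450 g, with no treatment named for either. Sperm had been purified, and RNA of 18 to 45 nt went into the libraries. The sources used here do not give the number of animals. With 1 library per species there is no replicate error and no test, and the intervals below cover counting error at 95% only.

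The 5.8S rRNA is a short RNA of the large ribosomal subunit. It is cut out of the same precursor as 18S and 28S rRNA, where it lies between 2 spacers, and in the ribosome its ends are paired with 28S rRNA. Part of the molecules carry a few more bases at the 5′ end, a longer form known from many eukaryotes. Mature sperm translate little, and rRNA fragments are a regular component of their small RNA.

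Positions are counted along a 5.8S sequence that was joined from overlapping rat reads of all annotations, 5′ to 3′. Base 1 was set where the reads behind the next base outward fell from 19379 to 1385, and the last base, 156, where they fell from 31002 to 41. The full sequence is shown because all positions below refer to it, and the capitals mark the arms of the longest perfect inverted repeat with a loop of at most 10 nt:
joined rat 5.8S rRNA: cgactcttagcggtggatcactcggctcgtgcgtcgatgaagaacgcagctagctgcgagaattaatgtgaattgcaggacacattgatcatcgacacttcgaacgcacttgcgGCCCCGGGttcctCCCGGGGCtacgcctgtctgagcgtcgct
The arms lie at 115 to 122 and 128 to 135. Of the labelled fragments, 127 mouse and 1211 rat sequences lay on this sequence with at most 2 mismatches and no gap. An exact match held for 95.8% of mouse reads and 93.9% of rat reads, so in the bases they cover the abundant mouse fragments have the rat sequence. Left over were 1 mouse sequence and 2 rat sequences, with 1 read each.

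The 4 most abundant mouse fragments with 1 common 3′ end are shown because they hold most of the mouse reads. The capitals mark the 24 nt that they share:
bases 58 to 81: GAGAATTAATGTGAATTGCAGGAC
bases 57 to 81: cGAGAATTAATGTGAATTGCAGGAC
bases 56 to 81: gcGAGAATTAATGTGAATTGCAGGAC
bases 47 to 81: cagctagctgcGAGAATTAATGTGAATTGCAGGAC
The rat fragments that led by reads are shown against them. They start at base 2 or 3, and the capitals mark what each has beyond base 26:
bases 2 to 26: gactcttagcggtggatcactcggc
bases 2 to 29: gactcttagcggtggatcactcggcTCG
bases 2 to 32: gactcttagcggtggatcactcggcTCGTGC
bases 2 to 37: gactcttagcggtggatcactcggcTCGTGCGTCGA
bases 3 to 26: actcttagcggtggatcactcggc
A further kind came from the 3′ part of the RNA and was found in both species. It is shown because it ends within or just after the first arm, whose bases are in capitals:
bases 104 to 122: acgcacttgcgGCCCCGGG
bases 103 to 123: aacgcacttgcgGCCCCGGGt

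The 5.8S label held 521 mouse reads, 0.0754% of the 691381 listed (interval 0.0690 to 0.0821), and 12736 rat reads, 0.606% of 2102735 (0.595 to 0.616). The share was thus higher in the rat library, by more than counting error. Of all reads labelled as rRNA, 5.8S fragments were 0.396% and 1.18%, respectively. Of the 128 mouse sequences, 5 have no readable count and enter the reads as 0. Of the sequence identifiers, 78279 mouse and 63001 rat ones are not listed, so fragments under those identifiers were not analysed here. Of the sperm and late germ cell miRNAs, miR-34c-5p had 255 mouse and 5785 rat reads, miR-34b-3p 68 and 563, miR-34b-5p 6 and 190, and miR-449a-5p 36 and 205, all with more reads in the rat. The epithelial miRNAs went both ways, with 218 and 104 reads of miR-141-3p, 3 and 18 of miR-200a-3p, 1 and 2 of miR-200b-3p, and 4 and 1 of miR-200c-3p. Stromal miR-143-3p had 2392 and 813 reads and miR-145, named miR-145a-5p in the mouse, 13 and 15. Of the blood markers, miR-451a and miR-486-5p had 8 and 32 mouse reads and 0 rat reads by name, and miR-144-3p had 0 in both. These miRNA counts are raw and not scaled to the listed reads, of which the rat library had more. What part other cells have in the 5.8S fragments was not tested.

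Among labelled reads, mouse fragments were short and centred on 24 nt, while rat fragments were spread from 24 to 37 nt. In the mouse, 38.4% of the 5.8S reads were of 24 nt, 15.2% of 25 nt and 9.79% of 18 nt, and the longest had 35 nt. In the rat, the modal length was 25 nt with 12.7%, and further maxima stood at 28 nt (7.90%), 31 nt (9.75%) and 36 nt (6.96%). Mouse reads lay within 18 to 25 nt in 82.5% of cases (79.0 to 85.7), and rat reads in 31.7% (30.9 to 32.5). Between 26 and 36 nt lay 17.5% and 59.5%, and between 37 and 45 nt 0 mouse reads and 8.06% of the rat reads. In the rat, 93 reads of 42 sequences were longer than 45 nt, up to 63 nt, beyond the stated size fraction.

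**Figure D1:**
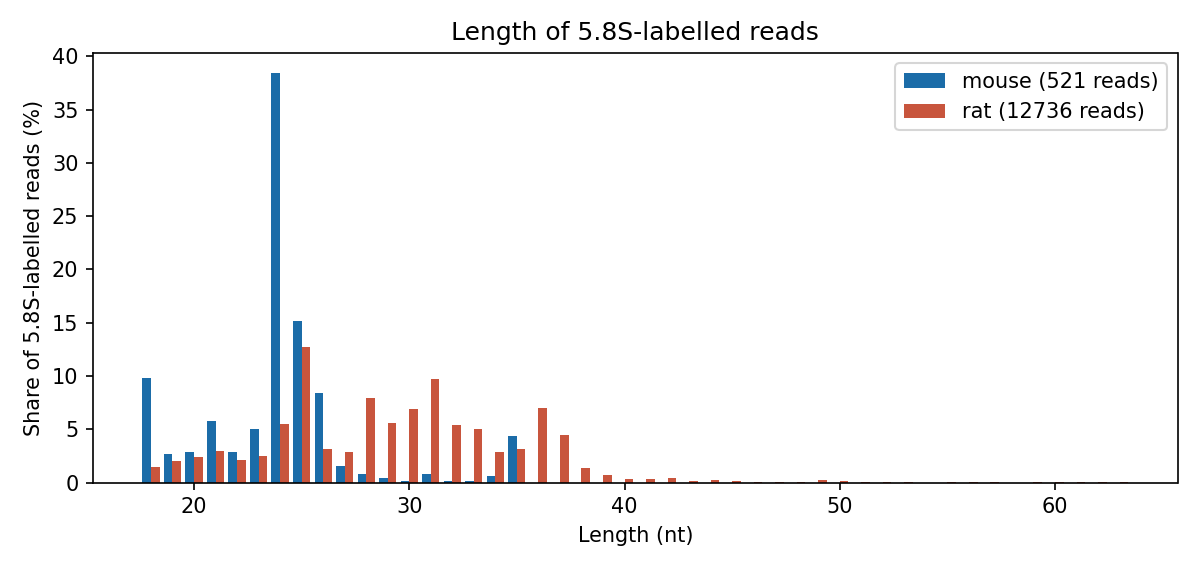
Length of 5.8S-labelled reads (x axis, nt) as a share of those reads (y axis, %), with 521 mouse reads in blue and 12736 rat reads in red. Mouse reads stand in 1 peak at 24 nt (38.4%), and rat reads in several lower peaks, the highest at 25 nt (12.7%).

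The other rRNAs with an Rfam label did not show the same difference in length. For 18S rRNA the window of 18 to 25 nt took in 29.9% of mouse reads against 63.6% of rat reads, the opposite order to 5.8S. For 5S rRNA it took in 9.51% and 12.75%. Mouse and rat median lengths were 24 and 29 nt for 5.8S, 34 and 23 nt for 18S, and 39 and 31 nt for 5S.

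In the rat, the 5.8S label was carried chiefly by fragments from the 5′ end of the RNA. Reads that start within 2 nt of base 1 made up 65.2% of the rat reads (64.4 to 66.0), with 8305 reads of 356 sequences. Of these, 6437 started at base 2 and 1868 at base 3, and 0 at base 1. The most abundant, bases 2 to 26, had 1418 reads (Poisson interval 1345 to 1494), followed by bases 2 to 29 with 796 reads, bases 2 to 32 with 739, bases 2 to 37 with 537 and bases 3 to 26 with 466. All 10 of the most abundant rat sequences started at base 2 or 3, and together they held 44.5% of the rat 5.8S reads. None of these 10 is listed in the mouse under any annotation.

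The same last bases recurred whichever base the rat fragment started with. Among reads that start at base 2, 23.2% ended at base 26, 13.1% at 29, 12.15% at 32 and 8.93% at 37. Among reads that start at base 3, 25.8% ended at 26, 7.17% at 29, 15.4% at 32 and 9.80% at 37. Their 8 most used last bases had 7 in common. Few reads started just after these ends: 2101 labelled reads ended at base 26 and 40 started at base 27, and 1287 ended at base 32 and 1 started at base 33. Most reads ran past these points, since labelled reads covering the base went from 10797 at base 26 to 8736 at base 27. From base 32 to base 33 they went from 6431 to 5145.

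**Figure D2:**
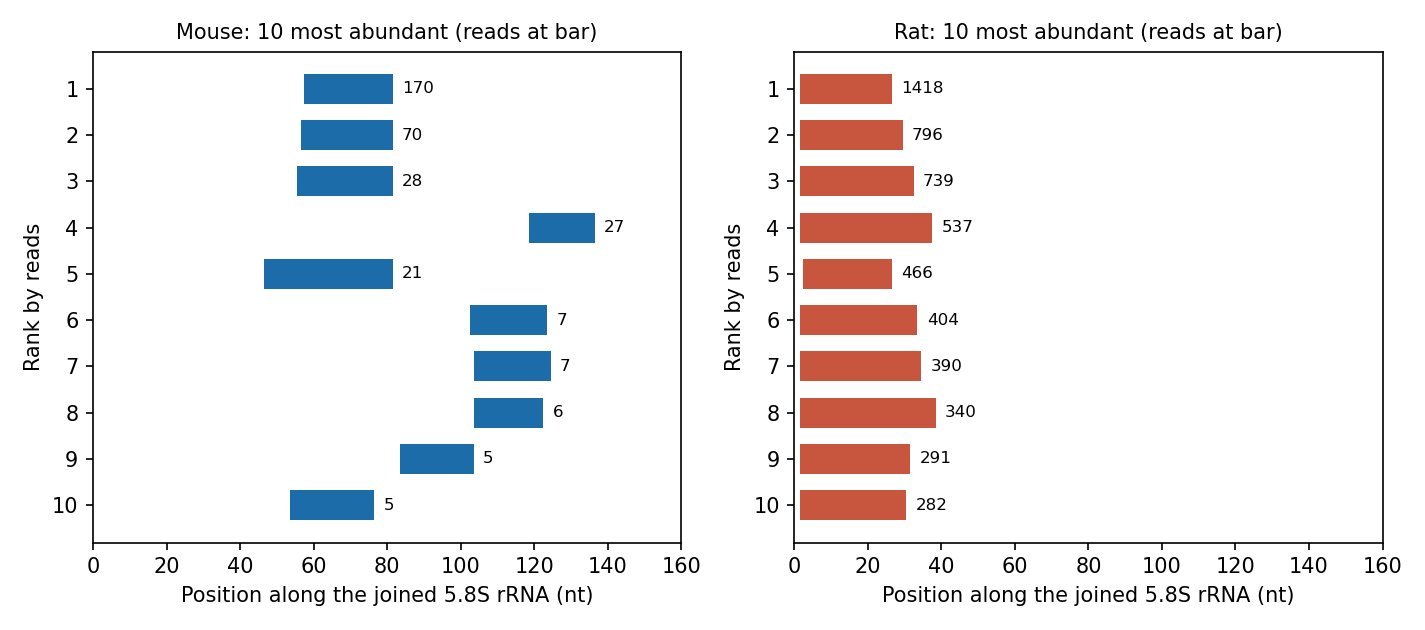
The 10 most abundant 5.8S-labelled sequences of each library, drawn as bars along the joined 5.8S rRNA (x axis, nt) in order of reads (y axis, rank), with the reads beside each bar. The 4 mouse bars that end at base 81 hold 170, 70, 28 and 21 reads, and all 10 rat bars start at base 2 or 3. The 5 mouse sequences without a readable count are not ranked.

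Mouse labelled fragments came from the middle of the RNA and shared a 3′ end. Of the mouse reads, 311 (59.7%) ended at base 81, after the sequence gcaggac shown above, and their starts fell mainly on base 58 (176 reads), base 57 (72) and base 56 (29). A longer form from base 47 had 21 reads. In the rat the same end had 182 reads, 1.43% of its 5.8S reads, with 57 from base 58, 35 from base 57, 29 from base 56 and 26 from base 46. The order of bases 58, 57 and 56 was thus the same in both libraries. The rat counts, not scaled to the larger rat library, were lower at 58 and 57 and equal at 56. Reads starting at the base after this end, 82, numbered 1 in the mouse.

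The single most abundant mouse fragment, bases 58 to 81, had 170 reads in the mouse (Poisson interval 145 to 198) and 54 in the rat (40.6 to 70.5). That is 32.6% of the labelled mouse reads and 0.424% of those in the rat. Bases 57 to 81 had 70 and 34 reads, bases 56 to 81 had 28 and 28, and bases 47 to 81 had 21 and 7. Counted per labelled 5.8S read, all 4 stood higher in the mouse, but they were picked for their high mouse reads. Outside this family the leading mouse sequence was bases 119 to 136, which crosses the loop of the inverted repeat, with 27 mouse reads and 1 rat read. It is shown with the arm bases in capitals:
bases 119 to 136: CGGGttcctCCCGGGGCt

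By where they start, the labelled reads fell on different parts of the RNA in the 2 species. Inner reads starting at bases 4 to 50 were 16.1% of the labelled mouse reads and 23.5% of those in the rat. Starts at bases 51 to 100 held 72.0% against 4.19%, and inner starts beyond base 100 held 11.7% against 7.11%. Among labelled reads, middle fragments thus led in the mouse, and 5′-end fragments, with 0 labelled mouse reads, led in the rat. The same sequence could differ in label: bases 2 to 19 were annotated as mRNA in the mouse but as 5.8S in the rat. Under any annotation, 33.3% of mouse and 23.5% of rat 5.8S reads started within 2 nt of base 1. The middle is also the part poorest in G and C, with 40% GC at bases 51 to 100 against 60% before and 71.4% after it.

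Another labelled rat end lay at base 50, with 553 reads in 48 sequences (4.34%), of which 27 reads started at base 2 and 3 at base 3. Bases 21 to 50 had 130 rat reads and bases 20 to 50 had 93, and both are shown because they cover the stretch beyond the ends of the 5′ fragments:
bases 21 to 50: ctcggctcgtgcgtcgatgaagaacgcagc
bases 20 to 50: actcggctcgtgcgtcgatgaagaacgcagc
A fragment that starts at base 4, just inside the 5′ group, bases 4 to 32, had 153 reads and the last base of a main 5′ fragment. The leading sequence from base 9, bases 9 to 45, had 74 reads. None of these 4 inner fragments is listed in the mouse.

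No labelled mouse read lay at either end of the RNA. Of 521 labelled reads, 0 started within 2 nt of base 1 and 0 ended within 2 nt of base 156. Counting error alone allows up to 0.576% of the labelled reads each. This limit does not cover reads under other annotations, of which 323 mouse reads lay at the 5′ end and 32 at the 3′ end. The lowest labelled start was base 10 and the highest labelled end base 151. Labelled mouse reads also left a gap: base 46 was covered by 1 labelled read, against 379 at base 71. Under other annotations 22 mouse reads covered base 46. In the rat, 0 of 12736 labelled reads ended within 2 nt of base 156, which allows up to 0.0236% of the labelled reads. Under other annotations 73098 rat reads ended there.

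**Figure D3:**
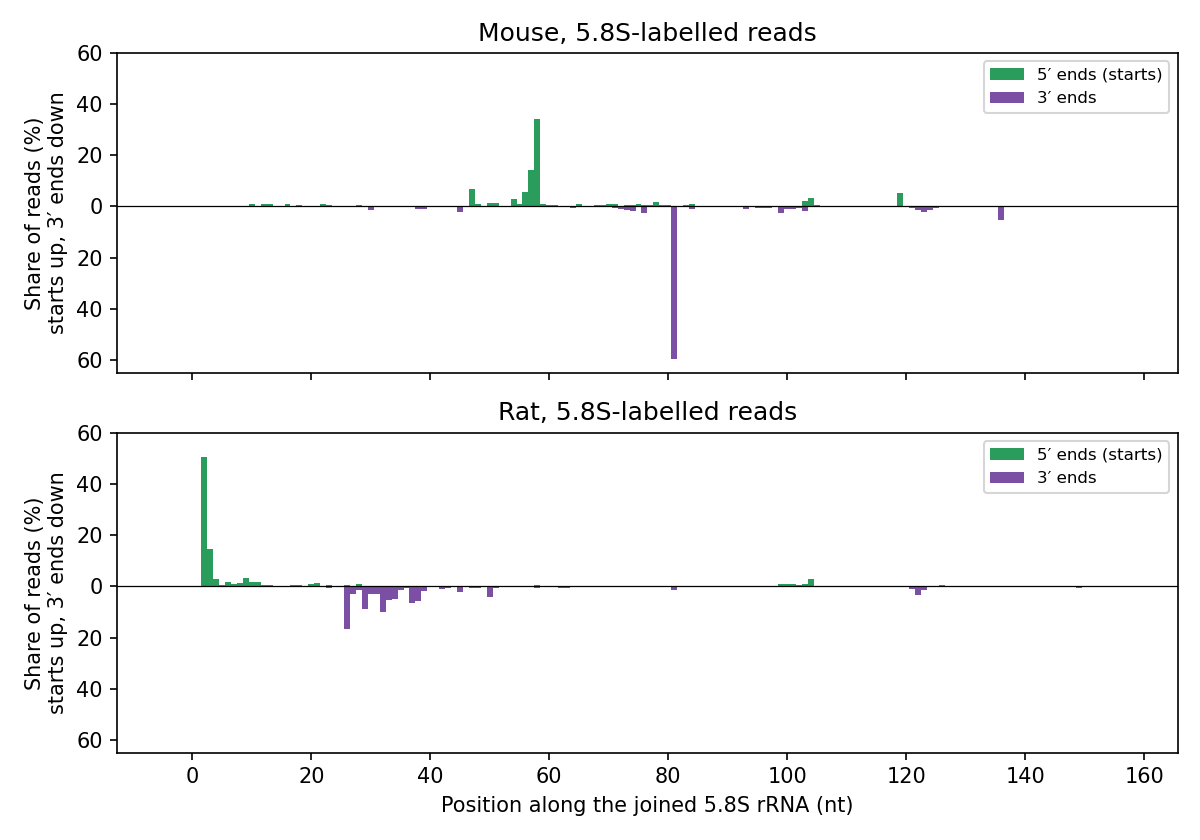
Share of 5.8S-labelled reads (y axis, %) that start (green, upward) or end (purple, downward) at each position of the joined 5.8S rRNA (x axis, nt), in the mouse (521 reads) and the rat (12736 reads). Mouse ends pile up at base 81 (59.7%), and rat starts at base 2 (50.5%) with ends spread from base 26 to 38.

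Fragments from the part before the inverted repeat were a smaller group present in both libraries. Bases 104 to 122 had 6 mouse and 171 rat reads, bases 104 to 123 had 4 and 71, bases 103 to 123 had 7 and 27, and bases 104 to 124 had 7 and 16. All labelled rat reads that start at base 104 numbered 365 (2.87%), and those that end at base 122 numbered 441, so other sequences share these ends. Of the labelled rat reads that lie between bases 84 and 130, 652 of 892 (73.1%) ended within the first arm. In the mouse 10 of 38 (26.3%) did, with few reads behind the value.

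Reads ended in C more often than the base composition of the RNA. The joined sequence holds 28.8% C, and 68.9% of labelled mouse reads and 40.8% of labelled rat reads had C as their last base. Counted over distinct sequences the shares were 37.5% and 32.8%, nearer to the composition. G was the first base in 49.3% and 56.6% of labelled reads, and in 32.0% and 34.95% of distinct sequences, and the most used starts, bases 58 and 2, are both G. Over 5.8S reads of any annotation, G was first in 57.2% of mouse reads but in 12.5% of rat reads, where C was first in 74.7%. The first base in the rat thus differed between labelled reads and all 5.8S reads.

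The 2 libraries shared 54 labelled sequences of 18 to 35 nt exactly. They took up 78.9% of labelled mouse reads (75.1 to 82.3) and 5.0% of labelled rat reads (4.63 to 5.39), as 42.2% and 4.45% of the sequences. None of the 54 came from the 5′ or 3′ end, and none could, since no labelled mouse read lay there. Under other annotations, bases 1 to 18 were in both libraries, with 103 mouse and 59 rat reads. So were bases 139 to 156, with 28 and 6 reads. Of the 54, 25 started between bases 51 and 100, with 307 mouse and 175 rat reads, 18 started between bases 4 and 50, with 48 and 35 reads, and 11 started after base 100, with 56 and 427. Shared sequences took up 94.4% of mouse and 92.2% of rat reads for 5S rRNA, and 28.5% and 80.8% for 18S rRNA.

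The labelled reads were matched by the authors to few database entries. In the mouse 2 Rfam entries received them, and 1 of 521 reads matched its entry without a mismatch, although 499 reads matched the joined rat sequence exactly. In the rat 9 entries were used, of which 1 held 11177 reads (87.8%), and 84.1% of the reads carried no deposited mismatch. Rat reads on that main entry lay between bases 2 and 81 of the joined sequence. In the mouse 340 reads carried 1 deposited mismatch and 180 carried 2, the most allowed, against 1253 and 777 rat reads. The labelled reads of the 2 species were thus matched to entries that fit them unequally. What part this has in their labelled shares, lengths and positions was not tested.

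In the rat, more 5.8S reads stood under other annotations than under the label. Every listed sequence was therefore laid on the joined sequence under the same limit of 2 mismatches. This gave 970 mouse reads of 181 sequences, 0.140% of the listed reads (0.132 to 0.149), and 116964 rat reads of 3559 sequences, 5.56% (5.53 to 5.59). The label covered 53.6% of these mouse reads and 10.9% of these rat reads. The remaining 104230 rat reads were annotated as mRNA (86.7%) or GenBank rRNA (13.2%), and the remaining 450 mouse reads as mRNA (58.4%) or GenBank rRNA (40%).

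Which fragments carried the label depended on the position of their ends. In the rat, 18293 reads that start at base 1 had other annotations and 0 had the label, while all 6437 reads that start at base 2 and all 1868 that start at base 3 had the label. At the other end, 39641 rat reads ended at base 155 and 32436 at base 156, with 0 labelled. Reads starting before base 1, within the joined flank cgata, numbered 1424, of which 803 began 1 base before it. The fragments of the 5′ end were thus divided by their first base between the 5.8S label and other annotations.

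**Figure D4:**
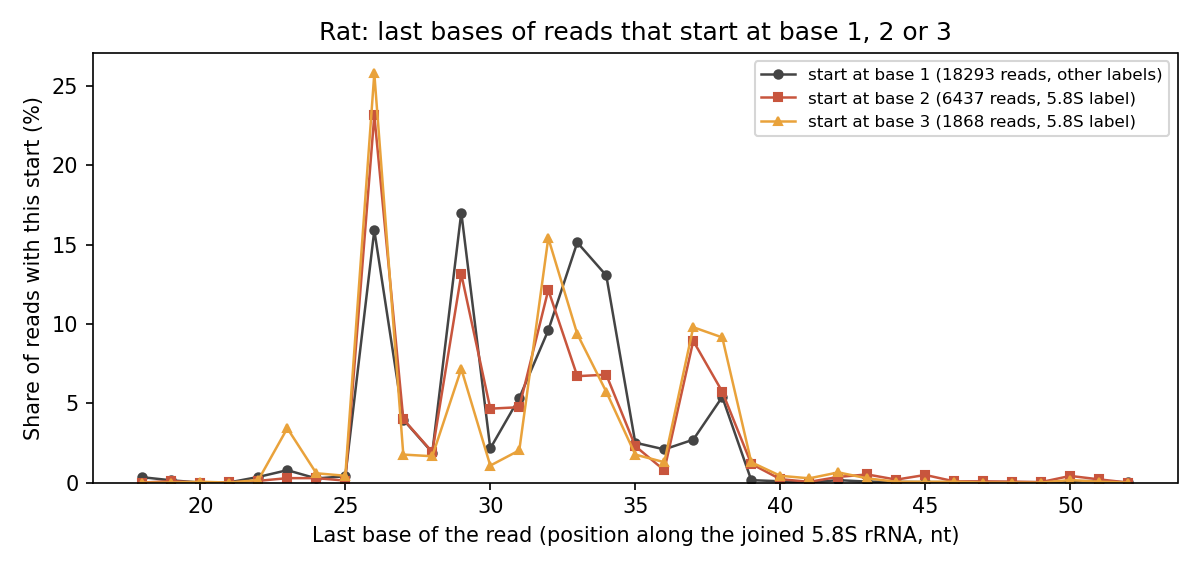
Last base (x axis, position in nt) of rat reads that start at base 1 (18293 reads under other annotations), base 2 (6437 labelled reads) or base 3 (1868 labelled reads), as a share of the reads with that start (y axis, %). All 3 lines have peaks at bases 26 and 29 and high values from 32 to 34, and ends at base 37 are less frequent for base 1 (2.71%) than for bases 2 and 3 (8.93% and 9.80%).

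The 5′ fragments from base 1 had largely the same ends as the labelled ones. Of their reads, 17.0% ended at base 29, 15.9% at 26, 15.1% at 33 and 13.1% at 34. Of their 8 most used last bases, 7 were among the 8 of the fragments from base 2 and 6 among the 8 of those from base 3. Base 37 stood out the other way, with 2.71% of the ends from base 1.

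The largest group of rat 5.8S reads under any annotation came from the 3′ end. Reads that end within 2 nt of base 156 numbered 73098, or 62.5% of the 116964 (62.2 to 62.8), and none carried the 5.8S label. The most abundant are shown because they outnumber every labelled fragment, and the capitals mark bases of the second arm of the inverted repeat:
bases 130 to 155, 15320 reads: CGGGGCtacgcctgtctgagcgtcgc
bases 129 to 155, 9668 reads: CCGGGGCtacgcctgtctgagcgtcgc
bases 129 to 156, 9029 reads: CCGGGGCtacgcctgtctgagcgtcgct
bases 126 to 156, 7942 reads: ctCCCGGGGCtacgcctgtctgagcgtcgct
bases 130 to 156, 6485 reads: CGGGGCtacgcctgtctgagcgtcgct
None of these 5 is listed in the mouse. Their starts lay in the loop or the second arm in 99.7% of the reads of this group, and of the 6570 rat reads between bases 84 and 130, 79.0% ended within the first arm. Rat reads that cross the whole loop numbered 389.

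The last base of the 3′ fragments varied with their first. The shares here are of the reads that end within 2 nt of base 156, not of all reads with that start. Such reads were 10911 of the 11538 from base 126 and 311 of the 387 from base 125. Of such reads from base 126, 77.8% ended at base 156 (77.1 to 78.6), and of those from base 129 48.6% (47.9 to 49.3). Of those from base 130 it was 29.9% (29.3 to 30.5), and of those from base 132 4.44% (3.61 to 5.40). From base 130, 15787 of 22905 such reads ended 1 base earlier, at 155. The share with the last base was thus higher from base 126 than from bases 129, 130 and 132, but it did not fall at each step, since base 125 had 74.3% (311 reads), base 127 40.8% and base 128 50.2%.

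**Figure D5:**
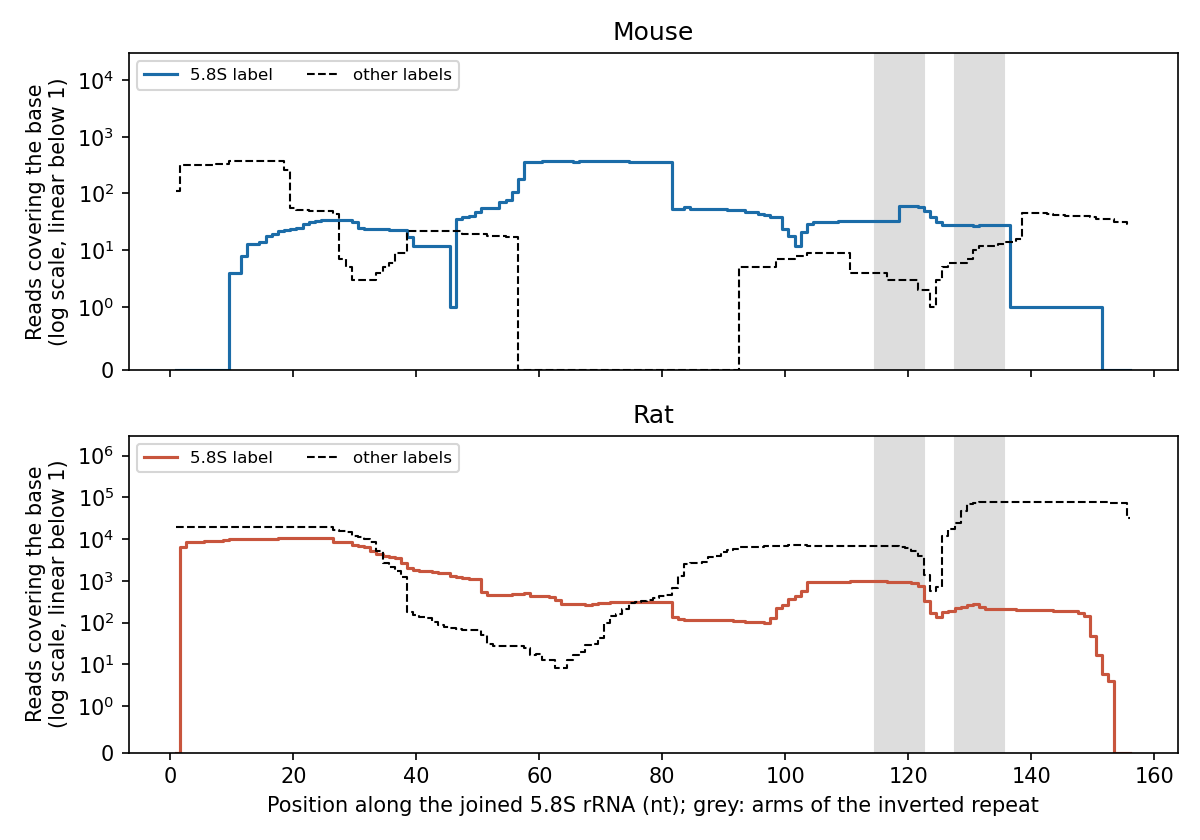
Reads that cover each base of the joined 5.8S rRNA (x axis, nt; y axis, reads on a log scale that is linear below 1) under the 5.8S label (solid) and under other annotations (dashed), in the mouse and the rat. Grey marks the arms at 115 to 122 and 128 to 135. Labelled reads peak at base 71 in the mouse (379) and base 23 in the rat (10810), and rat reads under other annotations are highest toward the 3′ end.

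In the mouse, reads under other annotations were nearly all of 1 length. Of the 450, 413 (91.8%) were of 18 nt, against 9.79% of the labelled mouse reads, 2.86% of all listed mouse reads and 0.130% of the rat reads under other annotations. Of the 4 most abundant, the 3 that lie at an end of 5.8S rRNA are shown, since no labelled mouse read does:
bases 2 to 19: gactcttagcggtggatc
bases 1 to 18: cgactcttagcggtggat
bases 139 to 156: gcctgtctgagcgtcgct
They had 200, 103 and 28 mouse reads, and 6, 59 and 6 rat reads, and the other one, bases 10 to 27, had 35 and 42. With them, 323 of the 970 mouse reads (33.3%) started within 2 nt of base 1, and 32 (3.30%) ended within 2 nt of base 156. How much of the difference between the species at the ends rests on mouse identifiers that are not listed was not tested.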

How the data were processed

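Small RNA was sequenced from 1 mouse and 1 rat library of cauda epididymal sperm. The deposited values are counts of reads per distinct sequence, which per the file headers the authors assigned to miRBase, Rfam or GenBank entries, allowing 2 mismatches. The submitters' processing notes name Bowtie 0.12.7, mm9 and rn5 with no role. The sources used here do not give the trimming or the order of databases.

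Sequences of minus-strand matches were reverse-complemented. The members and lists were chosen with earlier results of these data known. The 5.8S sequence was joined from rat reads of all annotations by extending the most abundant labelled sequence with the majority base after each run of 15 nt, while at least 5 reads held it. An end was set where the support fell under 10% of that of the base before. Labelled rat reads alone gave bases 2 to 99 of the same sequence, which is why all annotations were used. The 5.8S gene model of GENCODE M21 (GRCm38) differs by 28 edits and was not used, and no genomic coordinates are given. Placement was ungapped, with at most 2 mismatches, and joining and placement were tested on simulated fragments. Named fragments are the 10 most abundant per library, the leading sequence of the 5 most used starts and ends, and the 5 most abundant shared ones. Beyond these, the sequences under other annotations and further inner fragments were named after their values were seen.

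Shares have exact Clopper-Pearson and single counts exact Poisson 95% intervals (Python 3.11.15, SciPy 1.17.1). PCR copies are not independent molecules, so intervals, and the limit of 3 counts for a count of 0, cover counting error only. Alternatives are given in the closing section.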

Additional observations from a re-analysis of the deposited data

Results flagged for a closer look

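Signals outside the labelled sequences appeared in both libraries. Reads that lie on 5.8S rRNA under other annotations numbered 450 for mouse and 104230 for rat. The joined sequence was itself built from rat reads of all annotations, so the rat number is a description and no test. The 93 labelled rat reads longer than 45 nt lie outside the stated size fraction, and the whole tables hold 7282 mouse and 2522 rat reads of such lengths.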

How the results depend on the processing

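Each share was recomputed under the alternatives, mouse before rat. Under any annotation, the share of listed reads was 0.140% and 5.56%, of 5′-end reads 33.3% and 23.5%, of 3′-end reads 3.30% and 62.5%, of 18 to 25 nt 90.6% and 12.5%, of shared sequences 86.4% and 0.958%, and of the 10 most abundant 71.65% and 54.3%. The mouse then had the higher share of 5′-end reads. With each sequence counted once, the same shares without the last were 0.1435% and 0.883% of listed, 29.35% of 5′-end reads in the rat, 75.8% and 30.8% of 18 to 25 nt, and 42.2% and 4.45% shared. With at least 10 reads per sequence they were 0.0555% and 0.566% of listed, 72.9% at the rat 5′ end, and 84.8% and 1.09% shared. The shares in the top 10 were then 100%, fixed in advance since 5 mouse sequences were left, and 53.1%. With no deposited mismatch, which left 1 mouse read, they were 0.000273% and 0.677% of listed, 72.7% at the rat 5′ end, 100% and 26.25% of 18 to 25 nt, 0% shared in both, and 100% and 52.9% in the top 10. Without the most abundant sequence they were 0.0508% and 0.539%, 60.85% at the rat 5′ end, 74.1% and 23.1% of 18 to 25 nt, 68.7% shared in the mouse, and 51.3% and 39.9% in the top 10. With the exact first base the rat 5′-end share was 0%, since its labelled reads start at bases 2 and 3. The rat had the higher share of listed reads under the 5 alternatives tried for it, and the mouse that of 18 to 25 nt under the 4 that left more than 1 mouse read. Reading the month that replaces 5 lost mouse counts as the count, chosen after seeing the data, added 50 reads and left the 6 mouse shares within their intervals. The 10 most abundant mouse sequences then held 366 of 571 reads, against 346 of 521. Sequences without a count thus entered that list and replaced some of its lower ranks. No paired analysis was possible because each species has 1 library. The mouse values rest on 521 labelled reads.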

Other observations

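Sequence differences from the joined 5.8S rRNA were rare in the labelled reads, and in the rat more of them lay at the last base than at the first. They numbered 21 for mouse and 812 for rat, of which 81.0% and 83.0% lay inside the fragment, 9.52% and 14.5% at its last base and 9.52% and 2.46% at its first. The most frequent labelled change in the mouse, T14C (the joined base, its position from base 1, then the base read), had 4 of 13 reads there, and under any annotation 6 of 386. In the rat the most frequent labelled changes were G24C and G24A, with 69 and 68 of 10751 reads, and at the 3′ end under other annotations T156G, with 572 of 32482 reads at that base.

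The rat library held more distinct labelled fragments, also at equal depth. Thinned to 521 reads, the rat reads would give 175 distinct sequences on average, against 123 counted in the mouse. A further 5 mouse sequences have no count, and no spread was computed. The label covered 53.6% of mouse and 10.9% of rat 5.8S reads of any annotation, so these numbers hold for labelled reads only. Sequences seen with 1 read were 58.5% of the mouse and 56.2% of the rat sequences with a count.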
